A study of Mus musculus with 97 samples.

Results

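The loss of Dab1 and the loss of Cdk5r1 in the newborn mouse cortex were set against each other here, each knockout measured against the controls of its own data set. The samples were chosen by genotype and age alone: the 38 libraries of both whole-tissue knockouts and of their controls at P0, of which 37 with at least 50% uniquely aligned reads were used, out of 97 libraries in all. The measure is an interaction: the log2 change in libraries labelled KO-Dab1 against their controls, minus the log2 change in KO-Cdk5r1-MADM against theirs, tested with edgeR in a single fit of the 4 groups.

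The study labels cells of the cortex with MADM (mosaic analysis with double markers), in which Cre-driven exchange between a pair of chromosomes carrying split marker genes makes single cells green, red or both. All 4 groups came from mice of the CD1 strain, of both sexes, at P0, and carried Emx1-Cre, which is active in the dorsal telencephalic progenitors and their progeny. From each cortex, which is 1 replicate, 2000 GFP+ cells were sorted and their polyadenylated RNA sequenced. The 12 controls of the Cdk5r1 data set are labelled MADM-11 GT/TG;Emx1-Cre and the 10 KO-Cdk5r1-MADM libraries GT,Cdk5r1/TG,Cdk5r1 on MADM-11 with Emx1-Cre, so that all cells of the animal lack Cdk5r1. The 6 controls of the Dab1 data set are labelled MADM-5 GT/TG;Emx1-Cre and the 9 KO-Dab1 libraries GT,Dab1/TG,Dab1 on MADM-5, again with Emx1-Cre. The methods of the study name MADM-11 for the Dab1 data set as well, and the genotypes are given here as labelled.

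Reelin is a secreted glycoprotein of the embryonic marginal zone that binds Vldlr and Lrp8 on migrating neurons, and Dab1 is the adaptor inside the cell that is phosphorylated by Src family kinases when the receptors are engaged. Cdk5r1 encodes p35, the neuronal activator of the kinase Cdk5, which phosphorylates cytoskeletal and adhesion proteins. Loss of either pathway is known for disturbed layering of the cortex, with neurons that stop at the wrong depth.

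The libraries held between 1920213 and 8607367 reads on genes. The median was 4473665 in the controls of the Cdk5r1 set, 4622080 in KO-Cdk5r1, 7390173 in the controls of the Dab1 set and 6552415 in the libraries labelled KO-Dab1. Replicate 4 of the Dab1 set's controls was left out, since 4.82% of its reads aligned uniquely and 101309 fell on genes. Levels below are CPM, the counts in each 1000000 reads on genes after TMM scaling. Defining markers of cortical projection neurons were present in every library used, with Neurod2 between 197 and 902 CPM. The sorted cells were no pure population of neurons: Fabp7 of radial glia lay between 706 and 6479 CPM, and Olig1 of the oligodendrocyte lineage between 152 and 1628 CPM.

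Some libraries stood apart before any comparison of genotypes. Reads of the mitochondrial genome fell on mt-Nd3 in 6 of the 12 controls of the Cdk5r1 set and on Gm28438, a nuclear copy, in the other 6, in all 10 KO-Cdk5r1 libraries and in all 15 of the Dab1 set. The KO-Cdk5r1 libraries thus share this mitochondrial class with 6 of their 12 controls, and many results on KO-Cdk5r1 are given below also against the 6 of its own class. Where no such value is given, all 12 controls were used. Replicate 1 of the Dab1 set's controls carried markers of the meninges at 1815 CPM, against at most 92.3 CPM in the other controls of that set. Replicate 9 of KO-Cdk5r1 had radial glia markers at 13384 CPM, with 7972 CPM as the next highest in its group. Data set and genotype cannot be told apart between the knockouts, which is why each is measured against the controls of its own set.

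Of 12164 genes tested, 2 responded differently to the knockouts (0.0164%) with an adjusted p under 0.05 by edgeR and an absolute log2 difference above 0.35. Both changed more in KO-Cdk5r1 than in the libraries labelled KO-Dab1: 1 is the deleted gene and the other lies on the same chromosome. Cdk5r1 was the 1 gene higher in the interaction (0.00822%), and the noncoding transcript AA465934 the 1 gene lower (0.00822%). Both kept their call without any 1 of the 37 libraries, and in each of the 13 other settings tried. At an unadjusted p under 0.05 there were 803 genes, 419 higher and 384 lower, and DESeq2 called 12. The median standard error of an interaction was 0.24 on the log2 scale, and differences of more than 2-fold could miss the adjusted threshold, as Ntng2 did with a log2 difference of 1.37. The 95% interval, which is not adjusted for the number of genes, lay within 1.5-fold either way for 4752 genes (39.1%).

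Cdk5r1 (ENSMUSG00000048895.13, chromosome 11, 80477023 to 80481184, mm10) was the gene whose response differed most by p. In KO-Cdk5r1 its level was between 60.1 and 110.1 CPM with a median of 75.9, and in the controls of that set between 135 and 252 with a median of 180.1. In libraries labelled KO-Dab1 it was between 206 and 356 CPM with a median of 299, against 131 to 293 with a median of 198 in their controls. All 10 KO-Cdk5r1 libraries lay below the lowest control, while 5 of 9 libraries labelled KO-Dab1 lay above their highest control. The log2 change of Cdk5r1 was -1.22 (adjusted p 7.59e-09) in KO-Cdk5r1 and 0.49 (adjusted p 0.0779) in the libraries labelled KO-Dab1. The interaction was 1.71, with a 95% interval from 1.33 to 2.09 and an adjusted p of 3.91e-07. The deletion takes 31.4% of the exon bases of Cdk5r1, which would lower the log2 count by 0.54 if reads covered the exon bases evenly, and coverage along the gene was not analysed here. The rise in the libraries labelled KO-Dab1 missed the threshold with all libraries and passed it without replicate 2 (log2 0.61, adjusted p 0.0261) or replicate 5 (log2 0.57, adjusted p 0.0492) of the Dab1 set's controls. Its adjusted p lay between 0.0261 and 0.274 with 1 library left out, and between 0.000492 and 0.199 in the 13 other settings.

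AA465934 (ENSMUSG00000093483.1, chromosome 11, 83291699 to 83294632) is a processed transcript without a known role that lies 2810515 bases from Cdk5r1. Its level was between 10.3 and 93.3 CPM in KO-Cdk5r1 (median 64.2) and between 2.63 and 12.5 CPM in the controls of that set (median 6.98). Libraries labelled KO-Dab1 held 4.22 to 25.4 CPM (median 12.4) and their controls 4.22 to 12.7 CPM (median 9.72). Of the 10 KO-Cdk5r1 libraries 9 lay above all their controls, and the libraries labelled KO-Dab1 overlapped theirs. The log2 change was 3.01 (adjusted p 2.28e-10) in KO-Cdk5r1 and 0.58 (adjusted p 0.335) in the libraries labelled KO-Dab1, which made an interaction of -2.44 (adjusted p 0.00169, 95% interval -3.25 to -1.63). Within the mitochondrial class of KO-Cdk5r1 the 6 controls held 4.77 to 8.64 CPM, the same side of the knockout as the whole group. The transcript overlaps Snord7. Reads that overlap both genes are held apart as ambiguous in the count tables, and so are not in these counts, which ignore the strand. Sequence inherited with the targeted Cdk5r1 allele and the loss of Cdk5r1 cannot be told apart for a gene this close.

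**Figure D1:**
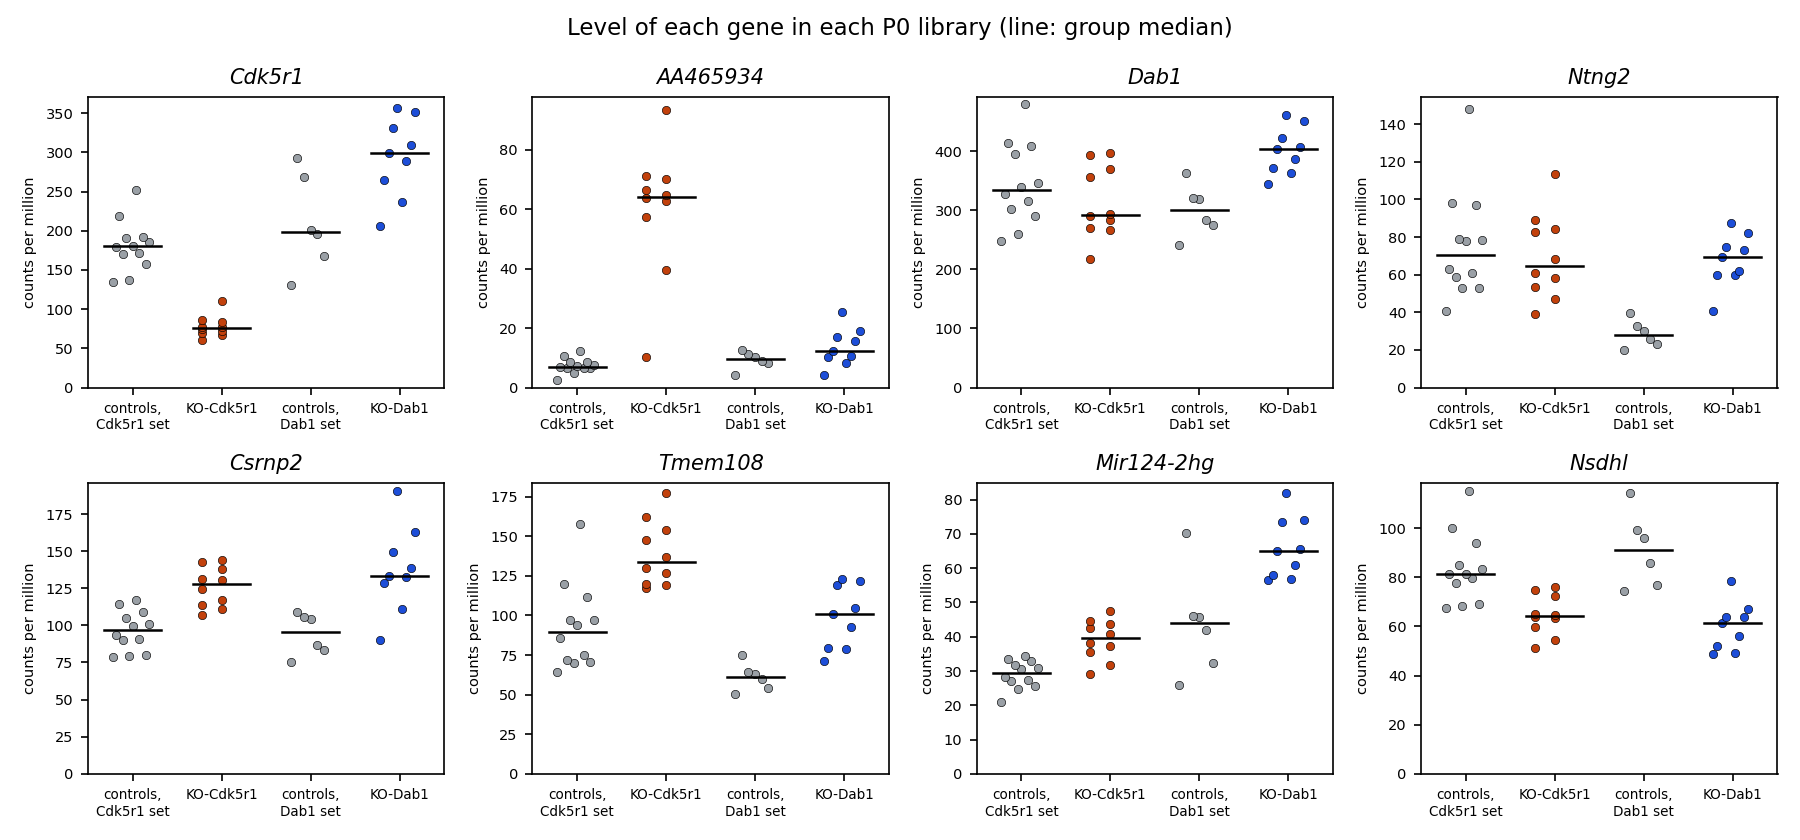
Level of 8 genes in each of the 37 P0 libraries, in CPM, with a point for each library and a line at each group's median. Cdk5r1 and AA465934 shift in KO-Cdk5r1, Dab1 and Ntng2 are higher in libraries labelled KO-Dab1 than in their own controls, and the lower panels hold the 4 genes that moved alike in both knockouts.

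Dab1 (ENSMUSG00000028519.16, chromosome 4, 103619359 to 104744844) did not fall in the libraries labelled KO-Dab1. Its level there was between 344 and 461 CPM with a median of 403, and in their controls between 241 and 364 CPM with a median of 301. KO-Cdk5r1 libraries held 218 to 397 CPM with a median of 292, and their controls 248 to 479.4 CPM with a median of 334. Of the 9 libraries labelled KO-Dab1 7 lay above their highest control. The log2 change was 0.41 (adjusted p 0.0872 by edgeR) in the libraries labelled KO-Dab1 and -0.13 (adjusted p 0.566) in KO-Cdk5r1, and the interaction of 0.54 was not called (adjusted p 0.43). The deletion named in the study's methods takes 1.77% of the exon bases of Dab1, so that a count over the whole gene checks the genotype very little. The study counted reads over the deleted region separately, and reports Dab1 expression as almost absent in its Dab1 knockout. The reads of the deleted exon were not analysed here, and for this reason the libraries are named by their label throughout.

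Beyond Cdk5r1 and AA465934, the genes with the smallest interaction p came close to the threshold without passing it, and those named next were chosen after their values were seen. Ntng2 encodes a membrane-anchored netrin of the cell surface that acts in axon and synapse organisation. It held 40.7 to 87.5 CPM in libraries labelled KO-Dab1 (median 69.6) and 19.8 to 39.5 CPM in their controls (median 28.0), against 39.2 to 113 CPM in KO-Cdk5r1 (median 64.5) and 40.9 to 148 CPM in the controls of that set (median 70.5). All 9 libraries labelled KO-Dab1 lay above their highest control, at a level that both groups of the Cdk5r1 set also had, so that the Dab1 set's controls were the low group of the 4. The log2 change was 1.25 (adjusted p 0.00472) in the libraries labelled KO-Dab1 and -0.12 (adjusted p 0.795) in KO-Cdk5r1, with an interaction of 1.37 (adjusted p 0.0688 by edgeR). It was called in 7 of the 13 other settings, with an adjusted p between 0.00288 (DESeq2) and 0.939 (controls pooled).

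Mapk10 encodes JNK3, a stress-activated kinase enriched in neurons. Its level was 110.2 to 160.3 CPM in libraries labelled KO-Dab1 (median 120.3) and 67.8 to 105 CPM in their controls (median 95.3), against 74.5 to 104 CPM in KO-Cdk5r1 (median 87.2) and 76.7 to 159 CPM in the controls (median 108). All 9 libraries labelled KO-Dab1 were above their highest control, and all 10 KO-Cdk5r1 libraries below the median of theirs. The interaction was 0.81 (adjusted p 0.0688 by edgeR), made of log2 changes of 0.53 in the libraries labelled KO-Dab1 and -0.29 in KO-Cdk5r1. It was called in 7 of the 13 other settings, with an adjusted p between 0.00195 and 0.163. Trpc4, a cation channel gene, and Mef2c, a transcription factor gene of postmitotic neurons, had the same form. For Trpc4 the log2 change was 0.79 in the libraries labelled KO-Dab1 and -0.84 in KO-Cdk5r1 (interaction 1.64, adjusted p 0.0831 by edgeR). For Mef2c these were 0.52, -0.91 and 1.43 (adjusted p 0.2 by edgeR). The interaction was called in 5 of the 13 other settings for Trpc4 (adjusted p 0.000423 to 0.56) and in 4 for Mef2c (8.18e-05 to 0.652), DESeq2 and the replicate block among them. Against the 6 controls of the same class it was 1.42 for Trpc4 and 1.29 for Mef2c, and neither was called. All 10 KO-Cdk5r1 libraries were below their controls' median for both genes, and of the libraries labelled KO-Dab1 8 of 9 were above theirs for Trpc4 and 9 of 9 for Mef2c.

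In the other direction Srp9, a subunit of the signal recognition particle, rose in KO-Cdk5r1 by 0.65 on the log2 scale with 7 of 10 libraries above the highest control. It changed by -0.17 in the libraries labelled KO-Dab1, and the interaction was -0.82 (adjusted p 0.108 by edgeR). It was called in 3 of the 13 other settings (adjusted p 0.000186 to 0.667), DESeq2 among them, and was -0.58 against the controls of the same class. Ptgds, a prostaglandin synthase gene of the meninges and of oligodendrocytes, had a larger interaction of -5.38 (adjusted p 0.0831), which rested on 1 library. It held 4577 CPM in replicate 1 of the Dab1 set's controls, with a median of 26.2 CPM in that group. Without this library the interaction of Ptgds was -0.36, and its change in the libraries labelled KO-Dab1 turned from -4.71 to 0.31.

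The knockouts can also be asked where they move genes together, since the contrasts against own controls share no library. Both contrasts come from the single fit, however, and share its estimate of the spread. A library of either set can thus move the calls in both. Against their own controls, 88 genes were called in the libraries labelled KO-Dab1 (0.723%), 32 higher (0.263%) and 56 lower (0.460%). In KO-Cdk5r1 488 genes were called (4.01%), 100 higher (0.822%) and 388 lower (3.19%). Called in both were 10 genes, which is 11.4% of the calls in the libraries labelled KO-Dab1 and 2.05% of those in KO-Cdk5r1, and each of the 10 moved in the same direction in both. A gene called in 1 knockout alone is not thereby shown to differ: of the 78 called in the libraries labelled KO-Dab1 alone and the 478 called in KO-Cdk5r1 alone, 2 passed the test of the difference.

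Both counts depended on single libraries. The 88 calls became 4 without replicate 1 of the Dab1 set's controls, 36 without replicate 7, 148 without replicate 5 and 281 without replicate 2 of that group. They became 38 without replicate 6 and 53 without replicate 9 of the libraries labelled KO-Dab1, and 150 without replicate 3 of the Cdk5r1 set's controls. The 488 calls in KO-Cdk5r1 became 750 without that same replicate 3 and 264 without replicate 9 of its controls. They became 286, 289, 310 and 284 without replicates 1, 2, 3 and 5 of KO-Cdk5r1. Against the 6 controls of its own mitochondrial class KO-Cdk5r1 had 3 calls among 12206 tested genes, and with the class as a covariate 6 calls. The first of these settings has 6 controls in place of 12 and thus less power, whose part was not tested. A list with 0 calls there is near the share of all genes. Of the 388 genes called lower, 385 were tested against the 6 controls, with a median of -0.57 in place of -0.82, and the 100 called higher had a median of 0.36 in place of 0.51. These values share the knockout libraries and 6 controls with the contrast that chose the genes, so that their direction was largely fixed by the choice.

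The genes called in both fall into 5 higher and 5 lower. For 4 of them (40%) the 95% interval of the interaction lay within 1.5-fold either way, beside 39.1% of all tested genes. The share was thus near that of all genes. These 4 are called alike here: Csrnp2, Tmem108 and Mir124-2hg, which were higher, and Nsdhl, which was lower. Csrnp2 encodes a nuclear protein with a cysteine- and serine-rich domain. Its level was 90.2 to 190.3 CPM (median 133) in the libraries labelled KO-Dab1 and 75.2 to 109 CPM (median 95.5) in their controls, and 107 to 144 CPM (median 128) in KO-Cdk5r1 against 78.9 to 117 CPM (median 96.7). Most knockout libraries, 8 of 9 and 7 of 10, lay above all of their controls. The log2 changes of 0.55 (adjusted p 0.0201 by edgeR) and 0.38 (adjusted p 0.018) differed by 0.16, with an interval from -0.15 to 0.47.

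Tmem108 encodes a transmembrane protein of neurons. It held 71.4 to 123 CPM (median 100.7) in the libraries labelled KO-Dab1 against 50.4 to 75.0 CPM (median 61.3), and 117 to 177 CPM (median 134) in KO-Cdk5r1 against 64.3 to 158 CPM (median 89.6). In the libraries labelled KO-Dab1 8 of 9 were above all controls, while in KO-Cdk5r1 2 of 10 were, though all 10 were above the controls' median. Its log2 changes were 0.70 (adjusted p 0.0215 by edgeR) and 0.58 (adjusted p 0.00466), with an interval of the difference from -0.28 to 0.52. Mir124-2hg is the host transcript of a neuronal microRNA. Its level was 56.6 to 81.9 CPM (median 64.9) in the libraries labelled KO-Dab1 against 25.8 to 70.1 CPM (median 43.9), and 29.2 to 47.6 CPM (median 39.5) in KO-Cdk5r1 against 21.1 to 34.4 CPM (median 29.3). The groups overlapped in both comparisons, with log2 changes of 0.59 (adjusted p 0.0416) and 0.43 (adjusted p 0.0311) and an interval of the difference from -0.22 to 0.54.

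Nsdhl encodes a sterol dehydrogenase of cholesterol synthesis. It held 48.8 to 78.4 CPM (median 61.2) in the libraries labelled KO-Dab1 against 74.6 to 114 CPM (median 91.0), and 51.2 to 75.9 CPM (median 64.3) in KO-Cdk5r1 against 67.4 to 115 CPM (median 81.4). Most of the knockout libraries, 8 of 9 and 7 of 10, lay below all of their controls. The log2 changes were -0.60 (adjusted p 0.00772 by edgeR) and -0.37 (adjusted p 0.0227), with an interval of the difference from -0.54 to 0.08. For each of the 4 genes the call in KO-Cdk5r1 was lost against the 6 controls of the same mitochondrial class, where the log2 changes were 0.31 for Csrnp2, 0.31 for Tmem108, 0.34 for Mir124-2hg and -0.24 for Nsdhl.

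The other 6 genes called in both were named after their values were seen, and their intervals were too wide to call them alike. Igsf3, an immunoglobulin superfamily gene, rose by 0.71 in the libraries labelled KO-Dab1 and by 0.46 in KO-Cdk5r1, and Elmod1 by 0.82 and 0.54 on the log2 scale. The changes of Pter were -1.18 and -0.95, those of Matn4, an extracellular matrix protein gene, -1.27 and -1.71, those of the immediate early gene Junb -0.82 and -0.59, and those of Add3, a gene of the membrane skeleton, -0.86 and -0.69. Against the 6 controls of the same class none of the 6 was called in KO-Cdk5r1, and the log2 changes there were 0.25 for Igsf3, 0.43 for Elmod1, -0.69 for Pter, -1.45 for Matn4, -0.61 for Junb and -0.35 for Add3. These counts were unstable too. In refits with 1 library left out the total called lower in both was between 1 and 19, the total called higher in both between 0 and 9, and the total alike between 0 and 11, and how many of the original genes each total held is not counted here. The totals were 1, 0 and 1 without replicate 1 of the Dab1 set's controls, 1, 0 and 0 without replicate 7, and 15, 9 and 9 without replicate 2. Without replicate 3 of the Cdk5r1 set's controls they were 19, 8 and 11, and without replicate 5 of the libraries labelled KO-Dab1 14, 8 and 10.

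**Figure D2:**
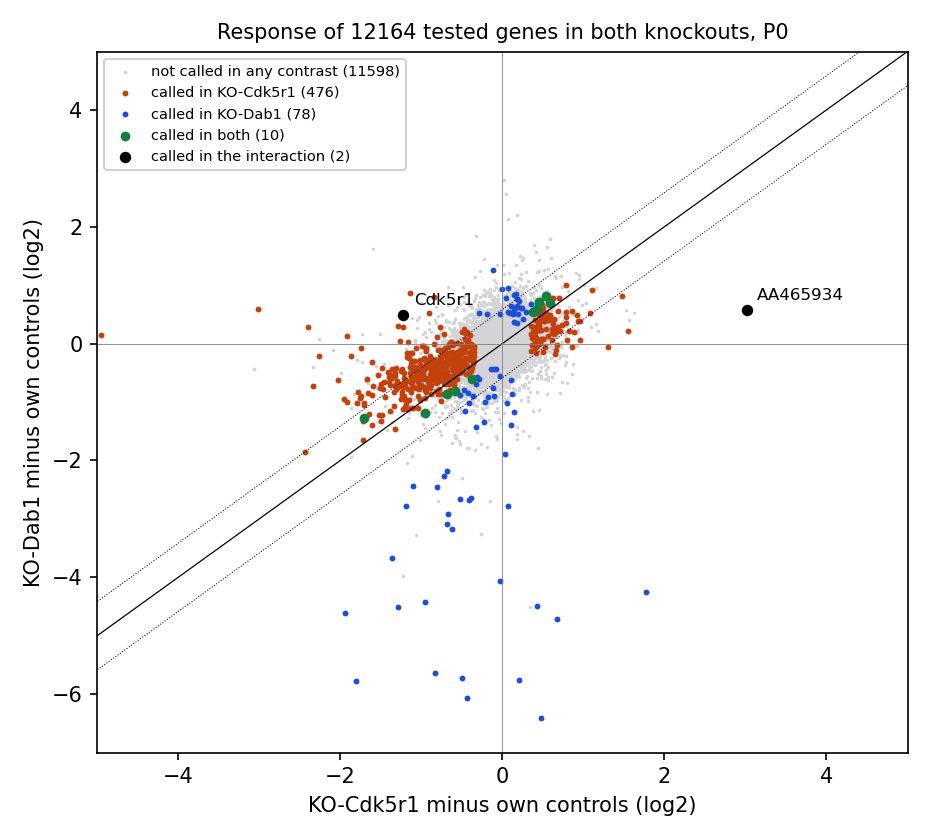
Log2 change of 12164 tested genes in KO-Cdk5r1 (horizontal) and in libraries labelled KO-Dab1 (vertical), each against its own controls, with the line of equal change and dotted lines 1.5-fold to either side. The 10 genes called in both lie near the line of equal change, Cdk5r1 and AA465934 lie away from it, and 1 gene falls outside the axes.

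Over the whole set of called genes, the knockouts moved in the same direction more often than they differed. Of the 388 genes called lower in KO-Cdk5r1, 359 (92.5%) were also below 0 in the libraries labelled KO-Dab1, with a median log2 change of -0.46 there against -0.82 in KO-Cdk5r1. Over all tested genes 47.2% were below 0 in the libraries labelled KO-Dab1, with a median of 0.02. Of the 100 genes called higher in KO-Cdk5r1, 87 were above 0 in the libraries labelled KO-Dab1, with medians of 0.29 and 0.51. Since the KO-Cdk5r1 values chose these genes and the others were not chosen, a smaller size in the libraries labelled KO-Dab1 is partly fixed by the choice. The interaction of the 388 had a median of 0.37 with all controls and of 0.11 over the 385 tested against the 6 controls of the same mitochondrial class, a shift that the choice of the genes with all 12 controls also fixes in part.

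Across all 12164 genes the log2 changes in both knockouts correlated with a Pearson r of 0.44 and a Spearman rho of 0.45, and 66.2% of genes had the same sign. Genes are not independent replicates, and markers of the same cell types enter both sides. In the reverse view, of the 56 genes called lower in the libraries labelled KO-Dab1, 44 were below 0 in KO-Cdk5r1, with a median of -0.38 against -1.41. Of the 32 called higher 28 were above 0, with a median of 0.17 against 0.62. With the controls of the same mitochondrial class the KO-Cdk5r1 medians were -0.19 and 0.12, with 42 of 56 below 0 and 27 of 32 above 0. Without replicate 1 of the Dab1 set's controls, 38 of those 56 genes were still tested, 36 of them below 0 with a median of -0.82, and 3 were called. All 32 higher genes were still above 0 without it, with a median of 0.59, and 1 was called. Over all 12094 genes tested in that refit 4 were called in the libraries labelled KO-Dab1. The refit shares the knockout libraries and the other controls with the contrast that chose the genes. The direction in it was thus largely fixed by the choice.

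The genes of the Reelin pathway and of the p35-Cdk5 pathway were counted by lists of their members. Apart from Cdk5r1 itself, neither list held a gene whose response was called different. Of 40 Reelin-Dab1 genes 29 were above 0 in the interaction, with a median of 0.12 against 0.01 over all tested genes. EdgeR and DESeq2 called 0 of the 40, beside 2 and 12 of 12164 tested genes. At an unadjusted p under 0.05 by edgeR 6 of them were higher and 0 lower, beside 419 and 384 of all tested genes. Called lower in KO-Cdk5r1 were 4 of them, beside 3.19% of all tested genes: Notch1, the adhesion gene Nectin3, the ephrin receptor gene Epha4, and Apoe, a ligand of the Reelin receptors. Against the controls of the same class edgeR called 0 of the 40 in KO-Cdk5r1, beside 3 of 12206 tested genes. The interactions of the 4 called lower were 0.27 for Notch1, 1.05 for Nectin3, 0.62 for Epha4 and 0.21 for Apoe. All missed the threshold (adjusted p 0.911, 0.43, 0.529 and 0.964 by edgeR). Nectin3, named here after its values were seen, had log2 changes of 0.28 in the libraries labelled KO-Dab1 (adjusted p 0.578 by edgeR) and -0.77 in KO-Cdk5r1 (adjusted p 0.0225), where all 10 libraries were below their controls' median. Of 44 p35-Cdk5 genes 35 were above 0 in the interaction, with a median of 0.16. At an unadjusted p under 0.05 by edgeR 10 were higher, Cdk5r1 among them, and 1 lower, beside 419 and 384 of all tested genes.

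Genes of neuronal excitability were counted in the same way. Of 115 ion channel and glutamate receptor genes 94 were above 0 in the interaction, beside 6231 of all 12164, with a median of 0.28, beside medians of 0.23 in the libraries labelled KO-Dab1 and -0.07 in KO-Cdk5r1. The latter was 0.002 against the 6 controls of the same mitochondrial class and 0.001 without replicate 3 of the Cdk5r1 set's controls. EdgeR called 0 of them in the interaction and DESeq2 1, beside 2 and 12 of 12164 tested genes. At an unadjusted p under 0.05 by edgeR 17 were higher and 1 lower, beside 419 and 384 of all tested genes. Against the controls of the same class the interaction median was 0.20, with 85 of 114 above 0. In cell adhesion 105 of 151 genes were above 0 (median 0.16), in axon guidance 44 of 68 (0.13), among synaptic vesicle genes 33 of 56 (0.10, and 0.03 without replicate 3 of the Cdk5r1 set's controls) and among microtubule and dynein genes 48 of 72 (0.09). Extracellular matrix genes had a median interaction of 0.02 (-0.06 against the controls of the same class) and medians below 0 in both knockouts, of -0.29 and -0.24, with 6 and 19 of 109 called lower, beside 0.460% and 3.19% of all tested genes. Without replicate 1 of the Dab1 set's controls 102 were still tested, with an interaction median of 0.17. EdgeR called 0 of them in the libraries labelled KO-Dab1, beside 4 of all 12094 tested genes. Against the controls of the same class edgeR called 0 in KO-Cdk5r1, beside 3 of 12206 tested genes, with a list median of -0.10 there. Of the 6 called, 2 are also on the meningeal list, and of the 19, 4 are also on the radial glia, astrocyte or oligodendrocyte lists, whose medians in KO-Cdk5r1 were -0.76, -0.77 and -1.39. The part of these markers in the result was not tested.

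Among housekeeping groups, intervals within 1.5-fold were more frequent for oxidative phosphorylation and ribosomal proteins than over all tested genes. The width of an interval depends on the standard error and so on the count, and genes of like counts were not compared. Of 86 nuclear genes of oxidative phosphorylation, 73 (84.9%) had an interval within 1.5-fold either way, and so did 49 of 77 ribosomal protein genes (63.6%), beside 39.1% of all tested genes. Their interaction medians were -0.09 and 0.02, and -0.05 and 0.08 without replicate 1 of the Dab1 set's controls. They were -0.14 and -0.05 when replicate numbers were fitted as blocks, with 46 of 77 ribosomal protein genes below 0. Of the oxidative phosphorylation genes 53.5% had the same sign in both knockouts, beside 66.2% of all tested genes, with values near 0 in the libraries labelled KO-Dab1 (median 0.003), and 67 of 86 were below 0 in the interaction (53 of 86 against the controls of the same class). The 7 tested genes of the mitochondrial genome had a median of 0.17, the 30 of ER stress and amino acid response 0.08, and the 35 of hypoxia and glycolysis -0.05, with 42.9% of the latter within 1.5-fold. The last of these turned to 0.005 and the ER stress median to -0.002 against the 6 controls of the same mitochondrial class. Cholesterol synthesis is the group of Nsdhl: 22 of its 25 genes were below 0 in the libraries labelled KO-Dab1 and 23 in KO-Cdk5r1, with medians of -0.28 and -0.32. Of these 1 and 8 were called lower, beside 0.460% and 3.19% of all tested genes, and 15 of 25 had an interval within 1.5-fold, beside 39.1%. Against the 6 controls of the same class edgeR called 0 of the 25 in KO-Cdk5r1, beside 3 of 12206 tested genes. The median of the 25 there was -0.18, with 23 still below 0, and the interaction median turned from 0.11 to -0.09. Immediate early and dissociation genes, which respond within minutes to handling of the tissue, were below 0 for 25 of 37 in the libraries labelled KO-Dab1 and for 30 of 37 in KO-Cdk5r1, with an interaction median of 0.14. Their part in the other results was not tested.

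Markers of glial cells were mostly below 0 in both knockouts. EdgeR and DESeq2 called none of them in the interaction, beside 2 and 12 of 12164 tested genes. Fewer cells of a type among the sorted cells and less RNA of its genes per cell cannot be told apart in these libraries. The 19 radial glia markers summed to 3866 to 13384 CPM in KO-Cdk5r1 (median 5897) against 3679 to 15705 CPM in the controls (median 11176), and to 9528 to 17016 CPM in the libraries labelled KO-Dab1 (median 11538) against 13031 to 20437 CPM (median 14780). The groups overlapped widely, and the lowest control, replicate 3 of the Cdk5r1 set, lay below every knockout library. Of 18 tested, 17 were below 0 in each knockout, with medians of -0.33 in the libraries labelled KO-Dab1 and -0.76 in KO-Cdk5r1. Called lower were 12 in KO-Cdk5r1, beside 3.19% of all tested genes. In the libraries labelled KO-Dab1 0 were called lower by edgeR or DESeq2, beside 56 and 151 of 12164 tested genes. Against the 6 controls of the same mitochondrial class edgeR called 0 of the 18 in KO-Cdk5r1, beside 3 of 12206 tested genes. The median of the 18 there was -0.56. The interaction median of 0.41 became 0.15 against these controls, and 0.51 without replicate 9 of KO-Cdk5r1.

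The 13 oligodendrocyte lineage markers, led by Olig1, summed to 325 to 1506 CPM in KO-Cdk5r1 (median 612) against 457 to 2695 CPM (median 1651), and to 850.1 to 1831 CPM in the libraries labelled KO-Dab1 (median 998) against 1225 to 2486 CPM (median 1654). Their median log2 change was -1.39 in KO-Cdk5r1 with 8 of 11 called, beside 3.19% of all tested genes, and -0.64 in the libraries labelled KO-Dab1 with all 11 below 0. Against the controls of the same class the KO-Cdk5r1 median was -1.14 and edgeR called 0, beside 3 of 12206 tested genes. In the libraries labelled KO-Dab1 0 were called by edgeR and 1 by DESeq2, beside 88 and 288 of 12164 tested genes. The interaction median was 0.58, and 0.33 against the controls of the same class. Pdgfra, which marks the progenitors of this lineage, held 6.63 to 58.6 CPM in KO-Cdk5r1 and 24.1 to 91.3 CPM in the libraries labelled KO-Dab1, with a median of 66.2 and 90.2 CPM in their controls. Its log2 changes were -1.92 (adjusted p 0.00175 by edgeR) and -0.997 (adjusted p 0.163), and its interaction of 0.92 was not called (adjusted p 0.813).

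Astrocyte markers were below 0 in both knockouts. All 15 tested were below 0 in each (14 of 15 in KO-Cdk5r1 against the controls of the same class), with medians of -0.58 in the libraries labelled KO-Dab1 and -0.77 in KO-Cdk5r1, and 2 and 8 were called lower, beside 0.460% and 3.19% of all tested genes. Against the controls of the same class the KO-Cdk5r1 median was -0.50 with 0 called by edgeR, beside 3 of 12206 tested genes. The interaction median turned from 0.13 to -0.17 there. Without replicate 9 of KO-Cdk5r1 the interaction median was 0.31. Without replicate 1 of the Dab1 set's controls it was 0.20. EdgeR then called 0 in the libraries labelled KO-Dab1, beside 4 of all 12094 tested genes. The astrocyte markers summed to 2810 to 4123 CPM (median 3872) in the libraries labelled KO-Dab1 against 3767 to 7518 CPM (median 5440). In KO-Cdk5r1 the sum was 2008 to 5425 CPM (median 2522) against 1727 to 6806 CPM (median 5078). For microglia markers the interaction median was further from 0 than for the other glial lists, with 2 of 10 at an unadjusted p under 0.05, both higher, beside 419 higher and 384 lower of all tested genes. Their median was -0.41 in the libraries labelled KO-Dab1 (-0.13 without replicate 1 of the controls) and -1.81 in KO-Cdk5r1. Called lower in KO-Cdk5r1 were 2, beside 3.19% of all tested genes. Without replicate 9 of KO-Cdk5r1 8 were called lower, beside 581 of 12175 tested genes. Without replicate 3 of the Cdk5r1 set's controls 5 were, beside 577 of 12184. Against the controls of the same class edgeR called 0, beside 3 of 12206. All 10 tested microglia markers were above 0 in the interaction, with a median of 1.198 and of 1.194 against the controls of the same class. Their sum was low, with medians of 107 and 111 CPM in the Dab1 set and of 43.7 and 169 CPM in KO-Cdk5r1 and its controls. The defining marker Csf1r was at 0 in 2 KO-Cdk5r1 libraries, in 1 library labelled KO-Dab1 and in 1 of their controls. Interneuron markers had medians of -0.41 in the libraries labelled KO-Dab1 and -0.69 in KO-Cdk5r1 (-0.44 against the controls of the same class). Mural cell markers had medians of -0.55 and -0.94 (-0.67 against the same class). The former rested on replicate 1 of the Dab1 set's controls, without which 5 of the 7 were tested with a median of 0.25 in the libraries labelled KO-Dab1 and of 0.92 in the interaction.

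Projection neuron markers were mostly above 0 and subplate markers mostly below 0 in both knockouts. All 11 projection neuron markers were above 0 in the libraries labelled KO-Dab1 (median 0.38). There edgeR called 0 and DESeq2 1, beside 88 and 288 of 12164 tested genes. In KO-Cdk5r1 7 of 11 were above 0 (median 0.39). Called higher there were 4 and lower 1, beside 0.822% and 3.19% of all tested genes. Against the controls of the same class the KO-Cdk5r1 median was 0.09 and edgeR called 0, beside 3 of 12206 tested genes. The 6 tested subplate markers had medians of -0.35 in the libraries labelled KO-Dab1 and -0.67 in KO-Cdk5r1, with 5 of 6 below 0 in each. The defining marker Nxph4 changed by 0.78 in KO-Cdk5r1 (adjusted p 0.0745 by edgeR) and by -0.31 in the libraries labelled KO-Dab1. Summed over the list, median CPM was 135 in KO-Cdk5r1 against 138 in its controls. It was 97.8 in the libraries labelled KO-Dab1 against 132 in theirs. The interaction medians were 0.18 for projection neurons (0.44 against the controls of the same class), 0.36 for upper layer neurons (0.29 against these), -0.10 for deep layer neurons and -0.04 for the subplate markers. For deep layer neurons it was 0.07 against the controls of the same class, and for subplate markers 0.07 without replicate 9 of KO-Cdk5r1 and 0.20 without replicate 1 of the Dab1 set's controls. Cux2, an upper layer gene named after its values were seen, rose by 0.62 (adjusted p 0.0146 by edgeR) in the libraries labelled KO-Dab1, and was not called without replicate 1 (0.66, adjusted p 0.0553) or replicate 7 (0.50, adjusted p 0.0564) of their controls. Its adjusted p lay between 0.00216 and 0.0564 with 1 library left out, and between 0.000325 and 0.0771 in the 13 other settings. In KO-Cdk5r1 its change was 0.14 (adjusted p 0.529), and the interaction was 0.48 (adjusted p 0.539). Intermediate progenitor markers had an interaction median of -0.19 (0.07 against the controls of the same class) and proliferation genes of -0.25, with 27 of 29 proliferation genes below 0 in the libraries labelled KO-Dab1 and 25 in KO-Cdk5r1. The 3 Cajal-Retzius, 7 endothelial, 4 erythroid and 2 choroid plexus markers tested had interaction medians of 0.61, -0.08, 2.65 and 0.31. The erythroid markers summed to 689 CPM in replicate 6 of the libraries labelled KO-Dab1, with 197 CPM as the next highest. Their interaction median was 1.23 when replicate numbers were fitted as blocks. The endothelial median was -0.41 against the controls of the same class and 0.01 without replicate 1 of the Dab1 set's controls. The choroid plexus median was 0.68 without replicate 9 of KO-Cdk5r1, 0.15 without replicate 3 of its controls and -0.006 when replicate numbers were fitted as blocks. Among their defining markers the Cajal-Retzius gene Lhx1 was at 0 in 11 of 12, 7 of 10, 4 of 6 and 5 of 9 libraries of the controls and knockouts of the Cdk5r1 and then of the Dab1 set.

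**Figure D3:**
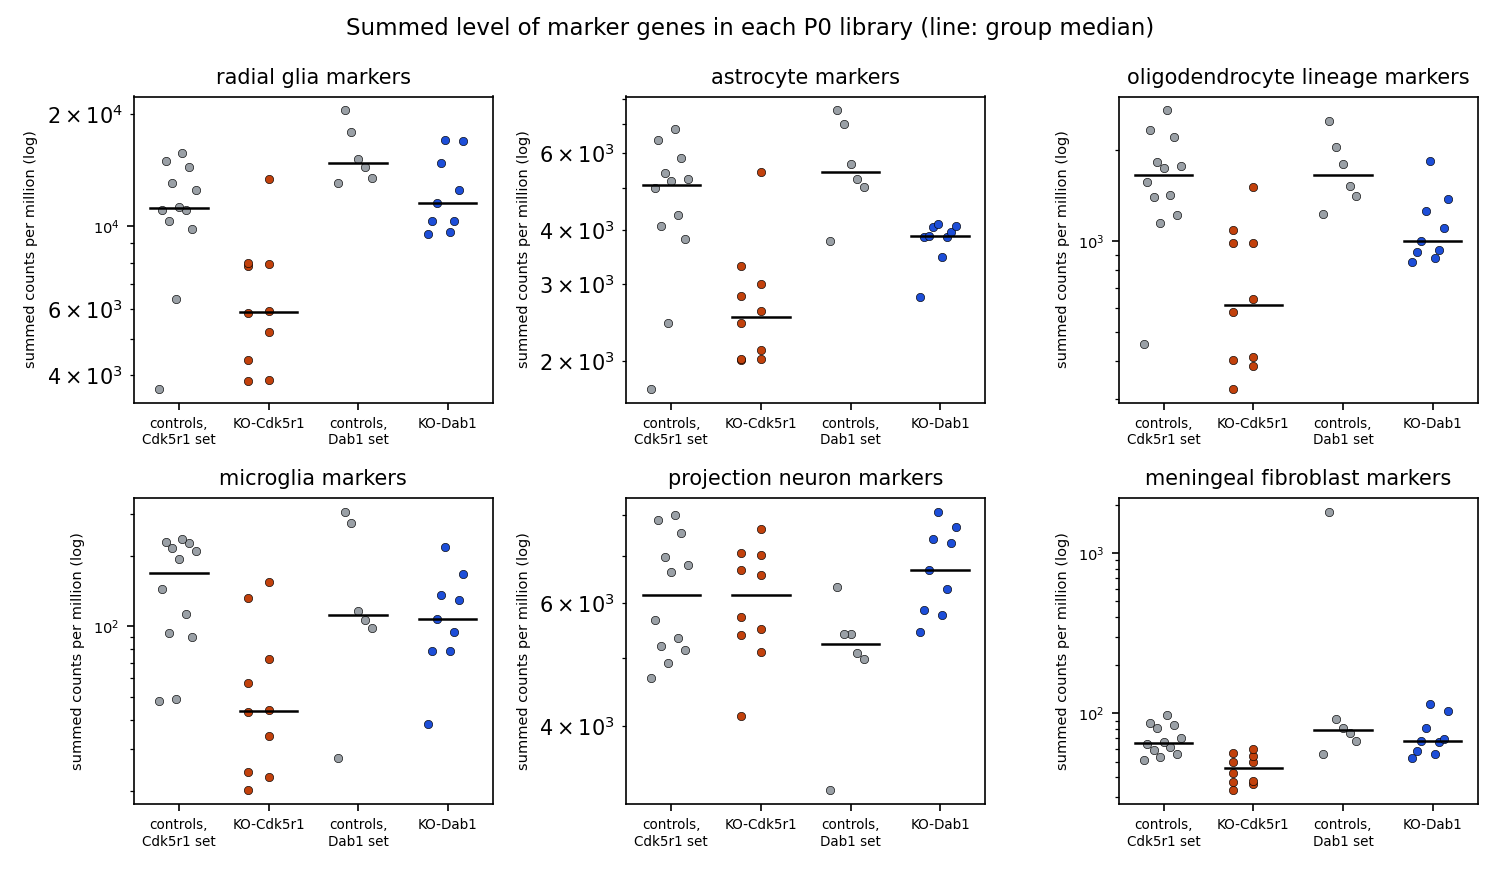
Summed CPM of 6 marker lists in each of the 37 libraries on a log axis, with a line at each group's median. Radial glia, astrocyte and oligodendrocyte sums have lower medians in both knockouts than in their controls, with medians of 5897 against 11176 CPM for radial glia in KO-Cdk5r1, and the meningeal sum of 1815 CPM in 1 control of the Dab1 set stands alone.

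The largest falls in the libraries labelled KO-Dab1 were of another kind, since they followed 1 control library. The meningeal fibroblast markers had a median of -2.92 there with 6 of 13 called lower (0.460% of all tested genes were), of -0.55 in KO-Cdk5r1, and of -2.54 in the interaction. They summed to 53.1 to 114 CPM in the libraries labelled KO-Dab1 (median 67.1) and to 56.0 to 1815 CPM in their controls (median 78.7), of which 1815 CPM belonged to replicate 1. Without this library 6 of the 13 markers were still tested. Their median was -0.21 in the libraries labelled KO-Dab1 and 0.94 in the interaction. EdgeR called 0 of them, where it called 4 of 12094 tested genes in the libraries labelled KO-Dab1 and 2 in the interaction. The list's first marker Dcn was at 0 in 1 library labelled KO-Dab1 and in 1 of their controls, and at most 7.47 CPM elsewhere in that knockout.

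Genes near the deletions were looked at separately, since they are inherited with the targeted alleles. Within 20 Mb of Cdk5r1, AA465934 was 1 call in the interaction among 410 tested genes, beside 0.0164% of all tested genes. Next by p were Copz2 (interaction -1.49, adjusted p 0.43 by edgeR) and Rapgefl1 (0.96, adjusted p 0.43). Within the same distance of Dab1, 193 genes were tested. There Trit1, a tRNA modification enzyme gene, rose by 0.51 (adjusted p 0.0372 by edgeR) and Raver2 changed by -0.87 (adjusted p 0.0482) in the libraries labelled KO-Dab1, the 2 calls there beside 0.723% of all tested genes. The interaction was 0.70 for Trit1 (adjusted p 0.11), which DESeq2 called, and 0.58 for Jun (adjusted p 0.529), an immediate early gene. Of 811 tested genes that are predicted, clones or pseudogenes 1 was called in the interaction, which is AA465934, beside 0.0164% of all tested genes. Xist and the 3 tested genes of the Y chromosome were not called in any of the 3 contrasts, with interaction log2 values between -1.14 and 0.82.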

How the data were processed

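Each library's count table, which the authors made with STAR on mm10, was taken as deposited. Column 2 was used, which ignores the strand (share on the annotated strand 0.489 to 0.502). In the 37 libraries 44.3% of reads were not on genes and did not enter library sizes. Of 53379 identifiers 53274 matched GENCODE without version. Genes with a mean count above 20 were fitted as 4 groups in R 4.3.3 with edgeR 4.0.16 (TMM, robust quasi-likelihood F test). P values were Benjamini-Hochberg adjusted over the 12164 genes, and genes with an adjusted p under 0.05 and an absolute log2 above 0.35 were called. The 95% interval uses the standard error of the fitted contrast with a t quantile. DESeq2 1.42.0 was an alternative, and both were tested on simulated data. Annotation and figures used Python 3.11.15 with matplotlib 3.10.9, and correlations scipy 1.17.1. The rule for named genes took Dab1 and Cdk5r1, up to 12 called genes per direction, up to 8 alike per direction, up to 5 called genes per list, markers that define a cell type or are most abundant, and the 3 with the smallest p at each deletion. All others, including those just outside the threshold, called in both knockouts or called in 1 knockout, were chosen after their values were seen. The members and the 15 gene and 17 marker lists were chosen with earlier results of these data known.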

Additional observations from a re-analysis of the deposited data

Results flagged for a closer look

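Cdk5r1 and AA465934 responded differently in the 2 knockouts by the test of the difference itself: the interaction was 1.71 for Cdk5r1 and -2.44 for AA465934 on the log2 scale.

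In 10 of 78 group values tested, 1 library lay far from the others of its group, where about 1 in 20 would by chance. Cdk5r1 itself was highest in replicate 7 of KO-Cdk5r1 at 110.1 CPM, next to 86.2. Replicate 9 of KO-Cdk5r1 had the highest sums of upper layer neuron (5866 CPM), radial glia (13384 CPM) and astrocyte markers (5425 CPM) and the lowest sum of subplate markers (90.3 CPM) in its group. Among the libraries labelled KO-Dab1, replicate 6 had the lowest astrocyte sum (2810 CPM) and the highest erythroid sum (689 CPM). Replicate 2 had the highest endothelial sum (1246 CPM) and replicate 1 the highest choroid plexus sum (199 CPM). Replicate 1 of the Dab1 set's controls had the highest meningeal sum (1815 CPM), next to 92.3. What set these libraries apart was not tested.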

How the results depend on the processing

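With all libraries there were 1 gene higher and 1 lower in the interaction, 88 calls in the libraries labelled KO-Dab1, 488 in KO-Cdk5r1, 5 lower and 5 higher in both, and 4 alike. Cdk5r1 and AA465934 were called in the interaction in all 13 other settings and without each of the 37 libraries. The values that moved were as follows, in the same order where given. DESeq2 gave 10 and 2 in the interaction, 288 in the libraries labelled KO-Dab1, 36 lower and 15 higher in both, and 15 alike. With no minimum of the mean count there were 188 calls in the libraries labelled KO-Dab1 and about 2.3e+02 in KO-Cdk5r1, 2 higher in both and 2 alike. With no alignment minimum there were 9 and 54 in the interaction, 216 in the libraries labelled KO-Dab1 and 8 lower in both. With the replicate number as a block there were 12 higher in the interaction, 202 in the libraries labelled KO-Dab1 and 19 lower in both. Whether replicate numbers pair libraries is not given by the labels: residuals of the same number correlated with r between -0.111 and 0.505 (median 0.133, above 0.1 in 6 of 10 pairs) in the Cdk5r1 set and between -0.055 and 0.17 (1 of 6 pairs) in the Dab1 set. A covariate for how many reads fell outside genes gave 3 higher in the interaction and 49 and 758 calls in the knockouts. The mitochondrial class as a covariate gave 2 higher in the interaction, 6 calls in KO-Cdk5r1, and 0 lower in both, 0 higher in both and 0 alike. Controls of the same class alone gave 4, 3, 0, 0 and 0 for these. Sex as a covariate gave 4 higher in the interaction. Controls pooled across data sets gave 1521 and 1177 in the interaction, 1483 and 1235 in the knockouts, 118 lower and 34 higher in both and 92 alike. There the data sets differ as well as the genotypes. Of the settings chosen after seeing the data, leaving out replicate 1 of the Dab1 set's controls and replicate 9 of KO-Cdk5r1 gave 3 calls in the libraries labelled KO-Dab1, 2 lower in both, 0 higher in both and 0 alike, and the class with the share outside genes gave 3 higher in the interaction, 8 in KO-Cdk5r1 and 0, 0 and 0. RLE size factors and no log2 minimum moved none of these counts by over 1.5 times. Reversed were the interactions of Tmem108 (-0.49) and Lss (-0.41) and the KO-Cdk5r1 changes of Sult1a1 (-4.11) and Fmod (-4.39) with pooled controls, and the change of Ptgds in the libraries labelled KO-Dab1 (0.30 without the 2 libraries and 0.31 without replicate 1 of the controls, over a range from -5.30). Leaving out 1 library gave 1 to 3 higher and 1 to 2 lower in the interaction, 4 to 281 and 264 to 750 calls in the knockouts, 1 to 19 lower and 0 to 9 higher in both, and 0 to 11 alike. Higher in the interaction were 3 without replicate 9 or 10 of the Cdk5r1 set's controls, 9 of KO-Cdk5r1 or 2 of the Dab1 set's controls, and 2 without 6, 11 or 12 of the Cdk5r1 set's controls, 5 of KO-Cdk5r1, 6 of the Dab1 set's controls, or 5 or 9 of the libraries labelled KO-Dab1. Lower were 2 without replicate 2 of the Cdk5r1 set's controls, 2, 5 or 6 of the Dab1 set's controls or 9 of the libraries labelled KO-Dab1. Lower in both were also 13 without replicate 5, 3 without 3 and 1 without 6 of the Dab1 set's controls; 3 without 2 or 5 and 9 without 9 of KO-Cdk5r1; and 8, 3, 10, 1, 3, 2 and 2 without 2, 3, 4, 6, 7, 8 and 9 of the libraries labelled KO-Dab1. Higher in both were also 3, 2, 3 and 3 without 5, 6, 7 and 10 of the Cdk5r1 set's controls, 3 without 1, 2 or 5 of KO-Cdk5r1, 3 and 9 without 3 and 5 of the Dab1 set's controls and 3 without 6, 7 or 9 of the libraries labelled KO-Dab1. Alike were also 2 without 5, 6, 7 or 10 of the Cdk5r1 set's controls or 2 or 5 of KO-Cdk5r1. Over the 142 named genes the interaction kept its direction and side of the threshold in 1728 of 1837 values in the other settings, and 107 passed it anew. The changes in KO-Cdk5r1 lost their call in 406 of 1837, and those in the libraries labelled KO-Dab1 in 129. The causes were not tested. Depth limits the interaction to genes with a mean count above 20, and with a median standard error of 0.24 differences of more than 2-fold could miss the threshold.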
